A study of Mus musculus with 2 samples.

Results

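Chemokine and neuregulin cues that guide migrating interneurons were followed here as 9 genes of the 32285 in the deposited matrices, 4 ligands (*Cxcl12*, *Nrg1*, *Nrg2* and *Nrg3*) and 5 receptors (*Cxcr4*, *Ackr3*, *Erbb2*, *Erbb3* and *Erbb4*). They were picked by symbol, with no measured value used in the rule but with earlier results of these data known, and all 9 were present. Single cell RNA sequencing (scRNA-seq) had been performed on dorsal telencephalon cells from WT embryos at E14.5, which served as controls of the Eomes-Cre mouse line on a C57BL/6J background. The labels give the tissue as brain hemispheres, and whether these embryos carried the Cre allele is not stated in them. There were 2 samples, called replicates 1 and 3 after their labels, each with a single droplet-based 3' library, so that cell classes and not treatments are compared. Nothing in the labels says whether the samples came from separate litters, and p-values therefore measure the spread between these 2 samples only.

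GABAergic neurons reach the pallium from the ganglionic eminences in streams that run parallel to the brain surface. The chemokine CXCL12 holds them in these streams through the G protein-coupled receptor CXCR4. ACKR3, which binds the same chemokine, signals through arrestins and clears the ligand from the surroundings of the cell. Neuregulins are EGF-like ligands of the ERBB receptor tyrosine kinases. NRG1 serves as a short- and long-range attractant for interneurons that carry ERBB4, and NRG3 is a further ERBB4 ligand of the cortical plate. ERBB2 has no ligand of its own and acts as a partner of the others, while ERBB3 lacks strong kinase activity and is best known from the neural crest and its glia.

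The coordinates below are those of RefSeq on GRCm38.p6, the build of mm10, which the submitters' processing notes name. *Cxcl12* lies at chr6:117168535-117181368, *Cxcr4* at chr1:128588199-128592299 and *Ackr3* at chr1:90203980-90215724. *Erbb4* spans 1077 kb (chr1:68031884-69108576), *Nrg1* spans 1084 kb (chr8:31807452-32891609) and *Nrg3* spans 1108 kb (chr14:38365102-39473235), and the *Nrg3os* antisense gene lies within *Nrg3*. The remaining genes were shorter, with *Nrg2* at 183.0 kb, *Erbb2* at 25.23 kb (chr11:98412484-98437716) and *Erbb3* at 22.11 kb (chr10:128567523-128589635). Whether reads in introns were counted is not given in the sources used here, which bears on the levels of the 3 very long genes, and 3' counts do not separate the isoforms of *Nrg1*.

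The 250 bases before the annotated start are printed for the chemokine gene and both of its receptors, since these 3 genes of 1 axis were each highest in a different cell class. They are written 5' to 3' on the strand of the gene, with matches to the TATA box (TATAAA) and the GC box (GGGCGG), on either strand, in capitals. *Cxcl12* was read from chr6:117168285-117168534 (plus strand), *Cxcr4* from chr1:128592300-128592549 (minus strand) and *Ackr3* from chr1:90203730-90203979 (plus strand).
Cxcl12: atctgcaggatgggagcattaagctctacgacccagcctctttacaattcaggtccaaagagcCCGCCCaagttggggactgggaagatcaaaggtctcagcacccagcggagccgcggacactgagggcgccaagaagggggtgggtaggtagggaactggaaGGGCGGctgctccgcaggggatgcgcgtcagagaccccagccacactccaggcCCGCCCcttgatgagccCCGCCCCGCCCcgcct
Cxcr4: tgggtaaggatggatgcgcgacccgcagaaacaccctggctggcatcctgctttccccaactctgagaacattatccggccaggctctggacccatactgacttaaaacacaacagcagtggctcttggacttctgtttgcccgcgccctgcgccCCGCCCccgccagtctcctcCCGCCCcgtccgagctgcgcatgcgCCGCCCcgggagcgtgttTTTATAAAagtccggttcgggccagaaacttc
Ackr3: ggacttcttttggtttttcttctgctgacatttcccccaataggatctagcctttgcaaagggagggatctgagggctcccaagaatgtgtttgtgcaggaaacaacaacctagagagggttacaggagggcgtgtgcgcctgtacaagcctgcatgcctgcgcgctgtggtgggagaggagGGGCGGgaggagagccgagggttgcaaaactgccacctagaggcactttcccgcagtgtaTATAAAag

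The *Cxcl12* stretch held 5 GC box matches and 0 TATA box matches, and 64.4% of its bases were G or C. In the *Cxcr4* stretch there were 3 GC box matches, and TATAAA was matched on both strands in overlapping positions that begin at -30 and -32, counted from -1 at the base before the start. *Ackr3* had 1 GC box match beginning at -68 and 1 TATA box match beginning at -8. Of 32851 promoters in the RefSeq table, 32.7% held GGGCGG and 12.4% held TATAAA within the same 250 bases. The homeodomain core TAATTA, which 4.84% of all promoters held, had 0 matches in the 6 promoters that the table gives for these genes. The same was found for E-boxes, namely CAGATG, held by 14.4% of all promoters, CAGCTG, held by 13.0%, and CACGTG, held by 6.02%. A match describes letters and was not tested as a binding site. *Nrg1*, *Nrg2* and *Erbb3* had no entry.

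After removal of shallow, mitochondria-rich and doublet-like barcodes, 5149 of 6163 barcodes of replicate 1 and 6854 of 8870 of replicate 3 were kept, with 64182006 and 93295807 unique molecular identifiers (UMIs, 1 per captured RNA molecule) before filtering. The libraries shared 23 barcodes. Cells were clustered with the 9 genes left out of the variable genes, and clusters were named "-like" from lists of markers. Levels are given as counts scaled to depth (CPM), the UMIs of a gene per 1000000 UMIs of its class in 1 replicate. Projection neuron-like cells numbered 2790 and 3216 in replicates 1 and 3, intermediate progenitor cell (IPC)-like cells 631 and 1240, and radial glial cell (RGC)-like cells 658 and 1509. Medial ganglionic eminence (MGE) interneuron-like cells numbered 333 and 214, with all 8 of their markers detected at a summed 10839 and 10299 CPM. Their 7 GABAergic markers summed to 2587 and 2613 CPM, whereas projection neuron-like cells had 11.1 and 4.38 CPM of them. These cells were shallow, with a median of 4528 and 3993.5 UMIs against 11053 and 10476.5 in projection neuron-like cells. The other GABAergic-like class held 443 and 31 cells. The cells sampled thus included interneurons, meninges, vessels and blood as well as cells of the pallium.

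*Cxcl12*, the chemokine, was found at high level in meningeal fibroblast-like cells, with 1096 CPM in replicate 1 and 1083 CPM in replicate 3 (mean 1090 ± 9.50, SD, n = 2). Cajal-Retzius-like cells followed with 102 and 33.2 CPM, endothelial-like cells with 36.1 and 24.5 CPM, and IPC-like cells with 26.2 and 24.8 CPM. Projection neuron-like cells were at 20.5 and 20.9 CPM, RGC-like cells at 0.762 and 0.778 CPM, and MGE interneuron-like cells had 2 UMIs in each replicate. The range of the meningeal class lay apart from all others, whereas neighbours from the Cajal-Retzius-like to the endothelial-like and from there to the IPC-like class overlapped. Against projection neuron-like cells the meningeal level was higher by 5.56 ± 0.31 (log2 fold change ± SE, edgeR adjusted p = 6.08e-11).

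Along the pallial lineage *Cxcl12* differed between RGC-like cells and the classes that follow them. The level was higher in IPC-like than in RGC-like cells by 4.56 ± 0.36 (edgeR adjusted p = 6.03e-08), with all IPC-like and RGC-like values apart, and higher in projection neuron-like than in RGC-like cells by 4.42 ± 0.36 (edgeR adjusted p = 6.74e-09). IPC-like and projection neuron-like cells differed by -0.13 ± 0.27 (projection neuron minus IPC, edgeR adjusted p = 0.736), and that sign was positive, at 0.77, when only cells with at least 3000 UMIs were used. Within projection neuron-like cells, the newborn clusters were at 29.9 and 30.5 CPM and the deep-layer clusters at 5.23 and 7.02 CPM, a difference of -2.18 ± 0.28 (deep-layer minus newborn, edgeR adjusted p = 1.77e-05). This difference rested on 1 cluster. The newborn cluster led by *Gm27008* reached 109 and 102 CPM and held 468 of 596 and 545 of 626 newborn *Cxcl12* UMIs, whereas the other 4 newborn clusters were between 3.28 and 18.2 CPM, a range that overlapped the 2.34 to 11.5 CPM of the deep-layer clusters. Without that cluster the newborn subclass was at 8.20 and 5.35 CPM and *Cxcl12* differed by -0.079 (edgeR adjusted p = 0.929), in a fit added after the data had been seen. Among IPC-like clusters, the one led by *Kif26b* was at 42.2 and 34.6 CPM and the one led by *Smoc1* at 3.77 and 1.63 CPM.

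A small class of cells held a large share of the *Cxcl12* molecules. Meningeal fibroblast-like cells made up 0.913% and 1.98% of the kept cells in replicates 1 and 3 and held 46.1% and 61.8% of all *Cxcl12* UMIs. Projection neuron-like cells held 37.2% and 24.2% of them and IPC-like cells 10.4% and 10.6%, so that the meningeal class had fewer UMIs than these 2 classes together in replicate 1 and more in replicate 3. When each cell was thinned to 3000 UMIs, *Cxcl12* was detected in 85.1% of the meningeal class in replicate 1 (40 of 47, 95% Wilson interval 72.3 to 92.6) and in 88.1% in replicate 3 (118 of 134, 81.5 to 92.5), with a median of 3 UMIs a cell in both. In MGE interneuron-like cells, where the transcript served as background, it was found in 0 of 265 and 1 of 151 thinned cells. Intervals of shares cover counting error only.

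**Figure D1:**
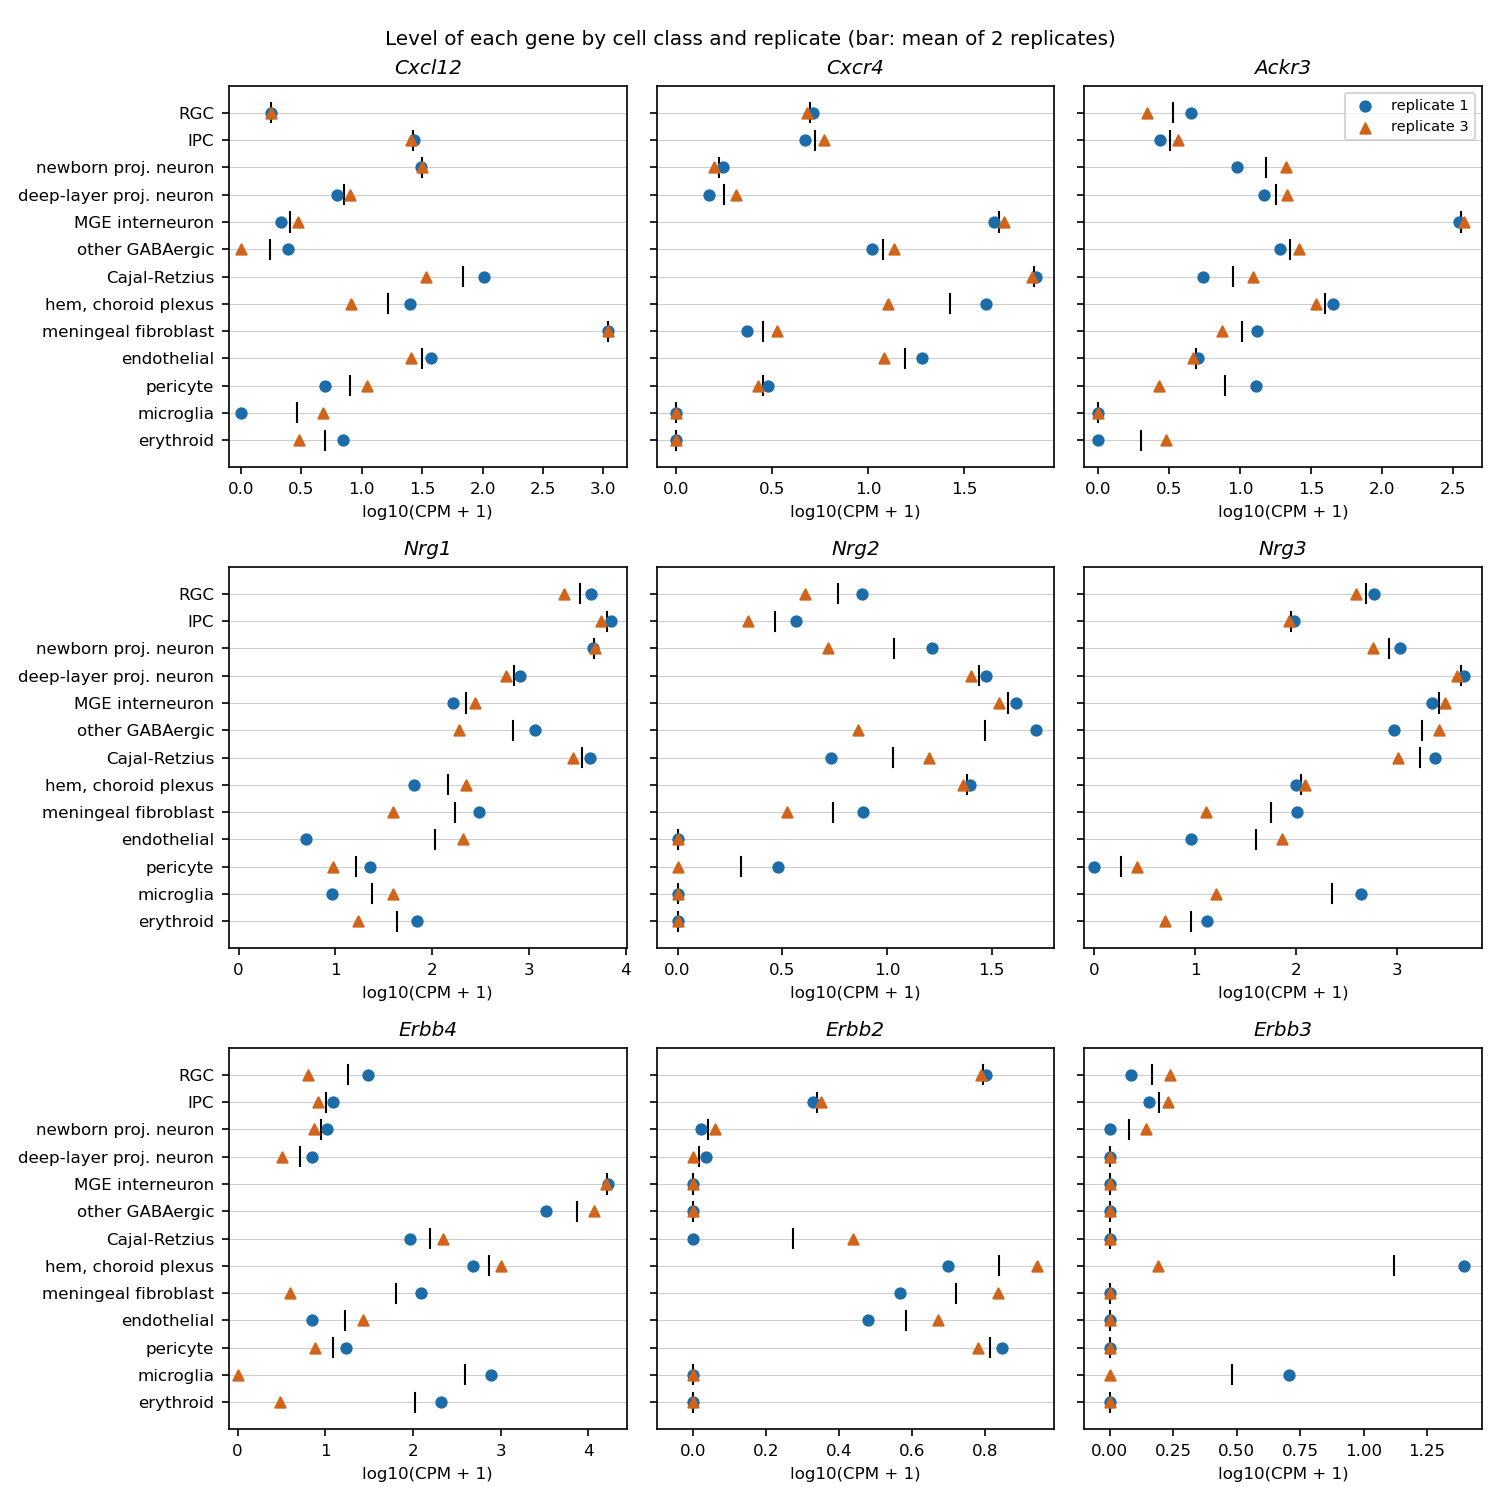
Level of each of the 9 genes by cell class, as log10 of CPM plus 1, with 1 point per replicate (circle, replicate 1, and triangle, replicate 3) and a bar at the mean. Cxcl12 was highest in meningeal fibroblast-like cells (1096 and 1083 CPM), Ackr3 (346 and 375 CPM) and Erbb4 (16786 and 15706 CPM) in MGE interneuron-like cells, and Nrg1 in IPC-like cells (7095 and 5598 CPM).

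*Cxcr4*, the signalling receptor, was at its highest level in 2 neuron classes. Cajal-Retzius-like cells, the Reelin-producing neurons of the marginal zone, were at 73.7 and 69.8 CPM in replicates 1 and 3 (mean 71.8 ± 2.75, SD, n = 2), and MGE interneuron-like cells at 44.3 and 49.7 CPM (47.0 ± 3.83). The ranges of these classes lay apart from each other and from those below. The third class, cortical hem and choroid plexus-like cells, was at 39.8 and 11.6 CPM (10 and 21 UMIs), and its share of thinned cells with *Cxcr4* was a mean 13.4% ± 10.8 (SD, n = 2), against 12.1% ± 0.626 in MGE interneuron-like cells. Projection neuron-like cells were at 0.653 and 0.777 CPM. The excess over projection neuron-like cells came to 5.91 ± 0.24 on the log2 scale for the Cajal-Retzius-like (edgeR adjusted p = 6.88e-11) and 5.49 ± 0.24 for the MGE interneuron-like class (edgeR adjusted p = 6.29e-11). RGC-like cells (4.13 and 3.79 CPM) and IPC-like cells (3.69 and 4.91 CPM) overlapped, and both were above projection neuron-like cells. The difference from IPC-like cells (-2.06 ± 0.22, edgeR adjusted p = 8.87e-07) did not pass the threshold when predicted doublets were kept (adjusted p = 0.0591) or when only cells with at least 3000 UMIs were used (adjusted p = 0.197). Endothelial-like cells had 18.0 and 11.0 CPM from 9 UMIs in each replicate, higher than projection neuron-like cells by 3.66 ± 0.38 (edgeR adjusted p = 2.97e-07).

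*Ackr3*, the atypical receptor of the same ligand, was at its highest level in MGE interneuron-like cells. These were at 346 and 375 CPM (mean 360 ± 20.9, SD, n = 2), and no other class exceeded 43.8 CPM, the level of the 19 cortical hem and choroid plexus-like cells of replicate 1. Unnamed cells (25.4 and 21.5 CPM) and the other GABAergic-like class (18.1 and 25.1 CPM) came next, projection neuron-like cells were at 10.5 and 20.1 CPM, and RGC-like and IPC-like cells were between 1.19 and 3.48 CPM. The MGE interneuron-like level was higher by 4.48 ± 0.32 than that of projection neuron-like cells (edgeR adjusted p = 1.34e-08), by 7.36 ± 0.39 than that of RGC-like cells (1.60e-10) and by 7.22 ± 0.40 than that of IPC-like cells (7.77e-10). Projection neuron-like cells in turn exceeded RGC-like cells by 2.88 ± 0.36 (edgeR adjusted p = 1.84e-06). Being numerous, they held 31.6% and 56.3% of all *Ackr3* UMIs, against 56.3% and 31.1% in MGE interneuron-like cells. Cajal-Retzius-like cells, which led for *Cxcr4*, had 3 and 13 UMIs of *Ackr3* (4.42 and 11.3 CPM), and their difference from projection neuron-like cells did not pass the threshold (-1.04 ± 0.56, edgeR adjusted p = 0.202).

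The receptors of CXCL12 separated the GABAergic classes. The other GABAergic-like class, led by *Adarb2* and *Dlx6os1*, had 18.1 and 25.1 CPM of *Ackr3*, lower than MGE interneuron-like cells by 4.35 on the log2 scale (-4.35 ± 0.43, edgeR adjusted p = 7.43e-06). *Cxcr4* was at 9.41 and 12.5 CPM there, a difference of -2.34 ± 0.30 (edgeR adjusted p = 0.000124). This comparison was added after the data had been seen, and its replicate 3 sum rested on 31 cells with 4 UMIs of *Ackr3* and 2 UMIs of *Cxcr4*. Of the 9 genes 7 were tested, and these 2 were lower and 0 higher, where 1.81% of all 12616 genes tested were lower and 4.37% higher. The other GABAergic-like class was mixed. Finer clustering found within it an *Adarb2*-led cluster with 25.6 and 25.9 CPM of *Ackr3* and 15.3 and 12.9 CPM of *Cxcr4*. A cluster led by *Rarb* and *Ebf1*, found only in replicate 1 (115 cells), had 10.2 CPM of *Ackr3* and 1.46 CPM of *Cxcr4*.

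**Figure D2:**
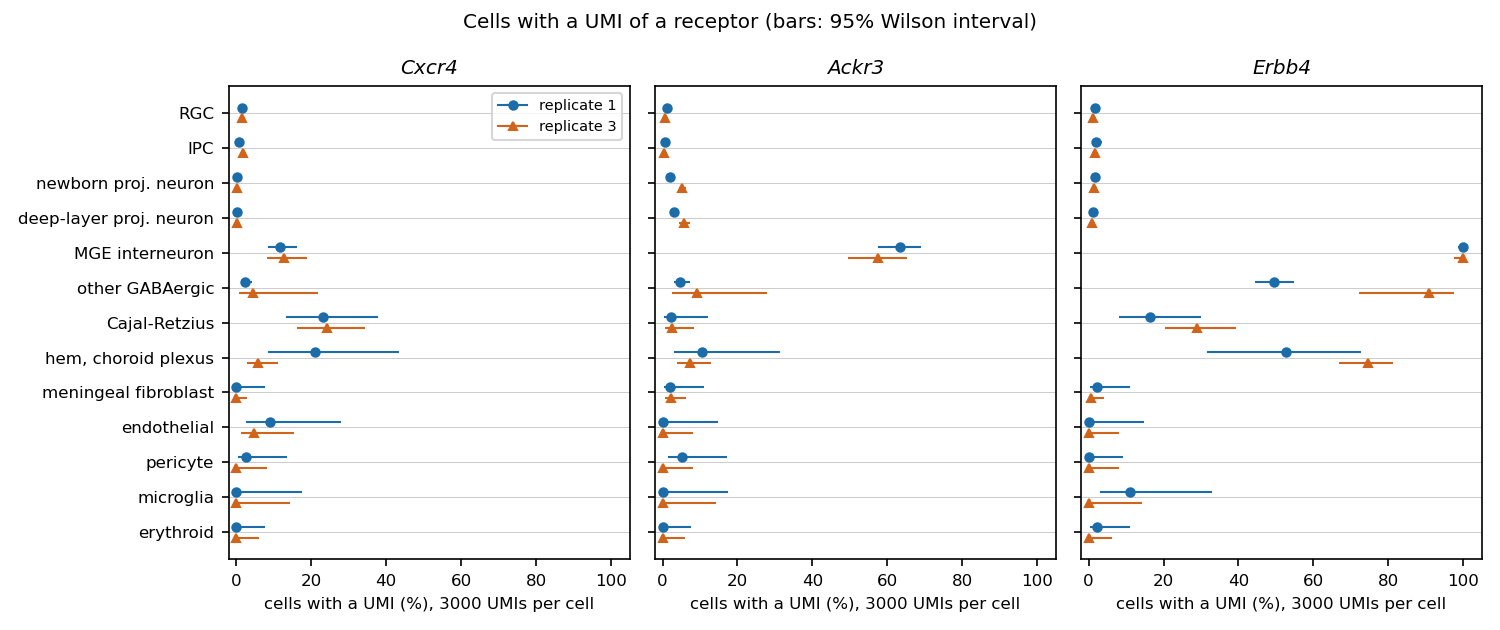
Share of cells (percent) with at least 1 UMI of Cxcr4, Ackr3 or Erbb4 after thinning each cell to 3000 UMIs, by class and replicate, with 95% Wilson intervals. Cells with under 3000 UMIs were left out. Erbb4 was found in 100% of thinned MGE interneuron-like cells of both replicates and Ackr3 in 63.4% and 57.6%, while Cxcr4 was found in 11.7% and 12.6% of them.

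In cells thinned to 3000 UMIs, *Cxcr4* was detected in MGE interneuron-like cells at a share of 11.7% in replicate 1 (31 of 265, 95% Wilson interval 8.36 to 16.1) and 12.6% in replicate 3 (19 of 151, 8.21 to 18.8). Without thinning the shares were 18.3% and 18.2%. Cajal-Retzius-like cells had 23.3% (13.2 to 37.7) and 24.1% (16.2 to 34.3), and projection neuron-like cells, taken as background, 0.184% and 0.229%. *Ackr3* was detected in 63.4% (57.4 to 69.0) and 57.6% (49.6 to 65.2) of MGE interneuron-like cells, and in 74.8% and 65.9% without thinning, against 2.43% and 5.42% of thinned projection neuron-like cells. Both receptors were found in the same cell in 7.92% and 7.28% of MGE interneuron-like cells. Among those with *Cxcr4*, 67.7% (50.1 to 81.4) and 57.9% (36.3 to 76.9) also had *Ackr3*, and among those without *Cxcr4* 62.8% (56.5 to 68.8) and 57.6% (49.0 to 65.7). These intervals overlapped in both replicates, so detection of 1 receptor was not seen to move with that of the other at this depth. Joint detection was 0 of 363 and 0 of 22 in the other GABAergic-like class, which allows up to 0.826% and 13.6%, and 0 of 43 and 1 of 83 in Cajal-Retzius-like cells.

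*Erbb4*, the neuregulin receptor of interneurons, set MGE interneuron-like cells apart from the cortical wall by the widest margin of the 7 genes tested. Its level was 16786 and 15706 CPM there (mean 16246 ± 763, SD, n = 2), while projection neuron-like cells had 8.15 and 4.69 CPM, IPC-like cells 11.2 and 7.24 CPM and RGC-like cells 29.4 and 5.34 CPM. The differences were 11.19 ± 1.48 from projection neuron-like (edgeR adjusted p = 1.94e-05), 10.86 ± 1.47 from IPC-like (1.11e-05) and 10.01 ± 1.42 from RGC-like cells (1.07e-05). The gene was among the leading genes of the cluster although it had been left out of the clustering. Every MGE interneuron-like cell with at least 3000 UMIs had it after thinning (265 of 265 and 151 of 151), while 68 and 63 shallower cells of the class were left out. The median was 48 UMIs of 3000 in both replicates, with a 10th percentile of 24 and 23 and a 90th of 80.6 and 78.

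Below the MGE interneuron-like class, the other GABAergic-like class had 3325 and 11478 CPM of *Erbb4*, and 49.6% and 90.9% of its thinned cells had the transcript. The difference between these classes did not pass the threshold (-1.23 ± 0.98, edgeR adjusted p = 0.607). Finer clustering found within it an *Adarb2*-led cluster, with 5301 and 11660 CPM in 266 of 443 and 29 of 31 cells, and a cluster led by *Rarb* and *Ebf1* that was found only in replicate 1 (115 cells, 338 CPM). The 2 replicates of this class were therefore not made of the same cells. Cortical hem and choroid plexus-like cells had 478 and 999 CPM, in 52.6% and 74.6% of thinned cells, of 19 and 138 cells. Cajal-Retzius-like cells had 91.4 and 217 CPM in 16.3% and 28.9% of thinned cells, and exceeded projection neuron-like cells by 4.29 ± 1.12 (edgeR adjusted p = 0.00852), a call that was lost when predicted doublets were kept (2.44, adjusted p = 0.164).

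Several low *Erbb4* levels rested on single cells. In meningeal fibroblast-like cells of replicate 1, 90 of 92 UMIs came from 1 cell, and without it 2.68 CPM were left, near the 2.92 CPM of replicate 3. The meningeal difference from projection neuron-like cells (2.96 ± 1.13, edgeR adjusted p = 0.0317) had opposite signs in replicates 1 and 3 (3.53 and -0.87). All 69 UMIs of erythroid-like cells in replicate 1 and 146 of 191 UMIs of microglia-like cells were likewise from 1 cell each. In RGC-like cells of replicate 1, 82 of 270 UMIs came from 1 cell, and 20.5 CPM were left without them.

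The other ERBB receptors were close to the limit of detection and were under the filter for testing. *Erbb2* had 218 UMIs in all 12003 kept cells. RGC-like cells were at 5.33 and 5.14 CPM, and cortical hem and choroid plexus-like (3.98 and 7.75 CPM), pericyte-like (6.01 and 5.02 CPM) and meningeal fibroblast-like cells (2.68 and 5.84 CPM) overlapped them on at most 14 UMIs in a replicate. IPC-like cells had 1.13 and 1.25 CPM, and projection neuron-like cells had 0.0622 and 0.0864 CPM. The ranges of RGC-like, IPC-like and projection neuron-like cells lay apart and fell in this order in both replicates. In MGE interneuron-like cells *Erbb2* had 0 UMIs, which allows up to 1.72 and 2.92 CPM (3 UMIs). Among receptors of the interneurons, *Erbb4* was thus measured without detectable *Erbb2* at this depth. *Erbb3* had 47 UMIs in 18 of 12003 cells, up to 13 in 1 cell. Of the 18 cells, 5 also had *Sox10*, a factor of neural crest glia and oligodendrocyte precursors, and held 9 of the 47 UMIs, while 33 kept cells had *Sox10*.

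*Nrg1*, the neuregulin best known as an interneuron attractant, was found at high level in progenitors and young neurons of the pallium. IPC-like cells were at 7095 and 5598 CPM in replicates 1 and 3 (mean 6346 ± 1058, SD, n = 2), and their range lay above those of all other classes. This order did not hold for single clusters. IPC-like clusters ran from 4656 and 4050 CPM (led by *Neil3*) to 9566 and 7236 CPM (led by *Smoc1*). The newborn cluster led by *Gm27008* was at 9673 and 8280 CPM and the RGC-like cluster led by *Ano1* at 6659 and 4528 CPM. Cajal-Retzius-like (4231 and 2852 CPM), RGC-like (4375 and 2322 CPM) and projection neuron-like cells (3132 and 3064 CPM) overlapped. MGE interneuron-like cells were at 162 and 279 CPM. The other GABAergic-like class was at 1161 and 188 CPM. Within it the finer cluster led by *Adarb2* had 574 and 194 CPM, and the one led by *Rarb* and *Ebf1*, found only in replicate 1, had 1801 CPM. Between IPC-like and RGC-like cells the difference did not pass the threshold (0.94 ± 0.87, edgeR adjusted p = 0.448), nor did that between projection neuron-like and IPC-like cells (-0.87 ± 0.86, adjusted p = 0.463), and both passed without the filter on low counts and with only the 2 classes in the fit.

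MGE interneuron-like cells had less *Nrg1* than each pallial class. The difference was -3.87 ± 0.97 from projection neuron-like cells (edgeR adjusted p = 0.00604), -3.80 ± 0.97 from RGC-like cells (0.00274) and -4.74 ± 1.01 from IPC-like cells (0.000878). Keeping predicted doublets moved the first to -1.46 (adjusted p = 0.226) and the second to -1.62 (adjusted p = 0.112), and neither then passed. In MGE interneuron-like cells *Nrg1* was detected in 15.8% and 27.8% of thinned cells, against 97.4% and 95.2% of IPC-like cells. The 7 projection neuron markers were all detected in MGE interneuron-like cells, at a summed 1485 and 1459 CPM against 6264 and 6070 CPM in projection neuron-like cells, and their part in the *Nrg1* level of MGE interneuron-like cells was not tested. Non-neural classes had little *Nrg1*, with 22.0 and 8.36 CPM in pericyte-like cells (-7.87 ± 1.29 from projection neuron-like cells, edgeR adjusted p = 5.17e-05). Of the 224 UMIs in meningeal fibroblast-like cells of replicate 1, 192 came from 1 cell.

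*Nrg3*, a neuregulin with a narrow preference for ERBB4, was instead highest in classes of neurons, though not in all neurons. MGE interneuron-like cells were at 2227 and 3006 CPM and projection neuron-like cells at 2420 and 1977 CPM, overlapping ranges with a difference of 0.20 ± 0.65 (edgeR adjusted p = 0.848). RGC-like cells were at 588 and 391 CPM and IPC-like cells at 93.9 and 84.5 CPM. The newborn projection neuron-like cluster led by *Gm27008* lay below RGC-like cells, at 68.5 and 49.1 CPM. *Nrg3* was detected in a mean 45.6% ± 3.82 of thinned RGC-like and 44.7% ± 9.74 of thinned newborn cells (SD, n = 2). IPC-like cells, the class with the most *Nrg1*, were thus lower in *Nrg3* than RGC-like cells by 2.43 on the log2 scale (-2.43 ± 0.68, edgeR adjusted p = 0.00990). RGC-like clusters led by *Ano1* (856 and 728 CPM) and *Hist1h1b* (712 and 504 CPM) were above all IPC-like clusters. Those led by *Cenpa* (109 and 110 CPM) and *Adamts19* (80.9 and 90.3 CPM) were below the IPC-like cluster led by *Smoc1* (205 and 183 CPM). They were above the IPC-like clusters led by *Neil3* (56.0 and 63.6 CPM) and *Kif26b* (26.8 and 25.6 CPM). Projection neuron-like cells were higher than IPC-like cells by 4.78 ± 0.76 (adjusted p = 5.09e-05) and than RGC-like cells by 2.35 ± 0.68 (edgeR adjusted p = 0.00629, 0.0522 with predicted doublets kept). MGE interneuron-like cells exceeded RGC-like cells by 2.55 ± 0.68 (edgeR adjusted p = 0.00397, 0.0548 with predicted doublets kept) and IPC-like cells by 4.98 ± 0.76 (adjusted p = 3.95e-05). *Nrg3* was detected in 72.1% and 86.8% of thinned MGE interneuron-like cells, all of which had *Erbb4*, and in a mean 13.6% ± 0.368 (SD, n = 2) of IPC-like cells. Pericyte-like cells had 0 and 1 UMI.

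*Nrg1* and *Nrg3* took opposite sides within projection neuron-like cells. Newborn clusters had 4561 and 4790 CPM of *Nrg1* and 1082 and 585 CPM of *Nrg3*, whereas deep-layer clusters had 808 and 583 CPM of *Nrg1* and 4596 and 3980 CPM of *Nrg3*. The replicate ranges of these subclasses did not overlap for either gene. The difference (deep-layer minus newborn) was 2.43 ± 0.68 for *Nrg3* (edgeR adjusted p = 0.0156) and -2.68 ± 0.89 for *Nrg1* (edgeR adjusted p = 0.0425). The *Nrg1* call was lost with DESeq2 (adjusted p = 0.120), with doublets kept (0.0655) with cells of at least 3000 UMIs (0.0525) and without the newborn cluster led by *Gm27008* (0.113), at fold changes between -2.68 and -2.20. Per cell of 3000 UMIs, the median of *Nrg3* was 13 and 11 UMIs in deep-layer and 1 and 0 UMIs in newborn cells, and the median of *Nrg1* was 1 and 1 in deep-layer and 9 and 12 in newborn cells. *Nrg3* was found in 97.6% and 95.5% of deep-layer cells and in 51.6% and 37.8% of newborn cells.

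**Figure D3:**
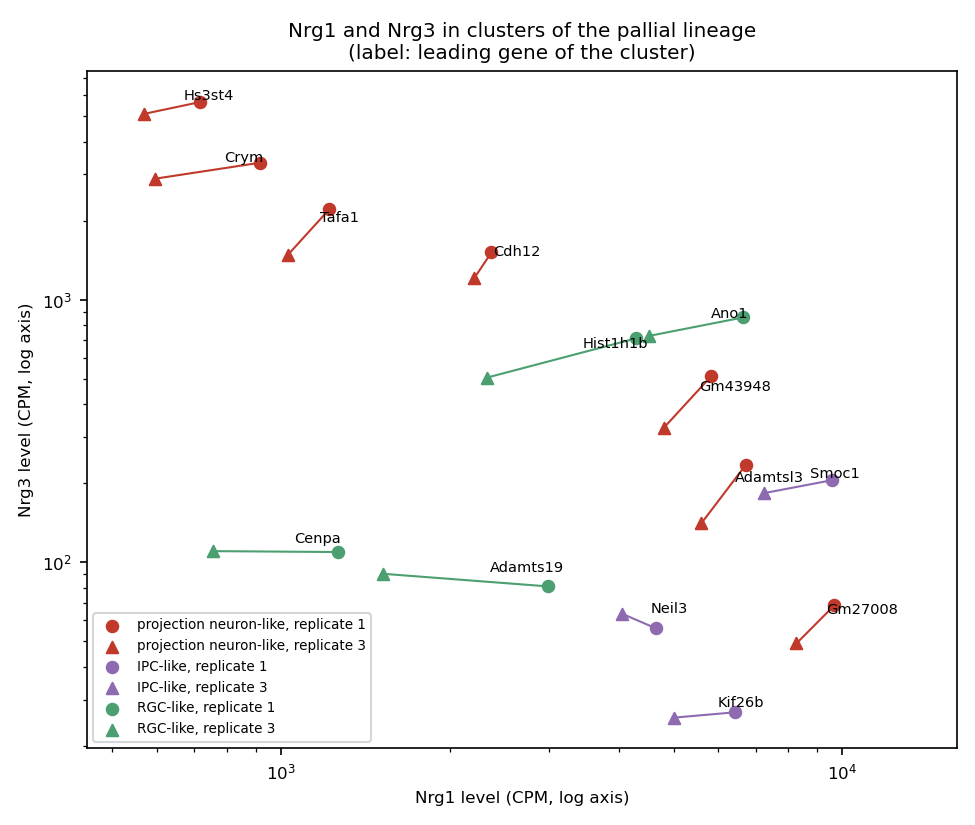
Level of Nrg1 (horizontal axis, CPM, log scale) against Nrg3 (vertical axis, CPM, log scale) in clusters of RGC-like, IPC-like and projection neuron-like cells, each labelled by its leading gene, with 1 point per replicate. The deep-layer cluster led by Hs3st4 sits at the upper left (716 and 569 CPM of Nrg1, 5653 and 5095 CPM of Nrg3) and the newborn cluster led by Gm27008 at the lower right (9673 and 8280 CPM of Nrg1, 68.5 and 49.1 CPM of Nrg3).

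Clusters of the pallial lineage extended this pattern. In the newborn cluster led by *Gm27008*, which also held the most *Cxcl12* of the projection neuron-like clusters, *Nrg1* was at 9673 and 8280 CPM and *Nrg3* at 68.5 and 49.1 CPM. The newborn cluster led by *Adamtsl3* had 6729 and 5602 CPM of *Nrg1* with 235 and 140 CPM of *Nrg3*, and the one led by *Cdh12* had 2368 and 2208 with 1513 and 1208 CPM. Deep-layer clusters led by *Crym* and *Hs3st4* had 918 and 596 CPM and 716 and 569 CPM of *Nrg1*, with 3323 and 2888 CPM and 5653 and 5095 CPM of *Nrg3*. The newborn cluster led by *Tafa1* lay near the deep-layer ones, with 1217 and 1027 CPM of *Nrg1* and 2206 and 1477 CPM of *Nrg3*, and the one led by *Gm43948* had 5831 and 4809 with 510 and 326 CPM. The order of *Nrg1* over all 7 projection neuron-like clusters was the reverse of that of *Nrg3* in both replicates. RGC-like cells did not follow it, since the cluster led by *Ano1* had 6659 and 4528 CPM of *Nrg1* together with 856 and 728 CPM of *Nrg3*. The mitotic cluster led by *Cenpa* was low in both, with 1263 and 756 CPM of *Nrg1* and 109 and 110 CPM of *Nrg3*.

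*Nrg2*, the third neuregulin, was found at low level. MGE interneuron-like cells had 40.2 and 33.1 CPM, the other GABAergic-like class 50.7 and 6.27 CPM and cortical hem and choroid plexus-like cells 23.9 and 22.2 CPM. Projection neuron-like cells were at 20.5 and 12.4 CPM, RGC-like cells at 6.64 and 3.06 CPM and IPC-like cells at 2.69 and 1.17 CPM. The level of MGE interneuron-like cells was higher than that of RGC-like cells by 3.06 ± 0.46 (edgeR adjusted p = 3.71e-05) and than that of IPC-like cells by 4.26 ± 0.52 (7.00e-06). Against projection neuron-like cells it missed the threshold (1.11 ± 0.42, edgeR adjusted p = 0.0576) and passed it with the replicate as a block (adjusted p = 0.0141). The same held for the difference between IPC-like and RGC-like cells (-1.20 ± 0.49, adjusted p = 0.0738, and 0.0188 with the block). Deep-layer clusters (28.8 and 24.2 CPM) exceeded newborn clusters (15.4 and 4.25 CPM) by 1.47 ± 0.45 (edgeR adjusted p = 0.0303), which was lost with DESeq2 (adjusted p = 0.205), with doublets kept (0.0579) with only these 2 subclasses in the fit (0.0908) and without the newborn cluster led by *Gm27008* (0.112). The cluster with the highest mean level of *Nrg2* was nonetheless a newborn one, led by *Tafa1*, at 51.6 and 27.4 CPM. In replicate 3 it lay below MGE interneuron-like cells and the deep-layer cluster led by *Hs3st4* (35.4 and 31.8 CPM, 237 and 224 UMIs), and these ranges overlapped. The *Tafa1* cluster held 178 of 306 and 35 of 87 newborn UMIs. Without it the newborn subclass was at 7.78 and 2.71 CPM and the difference was 2.34 (edgeR adjusted p = 0.000492). Endothelial-like cells had 0 UMIs of *Nrg2*.

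Against the cortical wall, MGE interneuron-like cells held the receptors of both cues and little *Cxcl12* or *Nrg1*. Compared with projection neuron-like cells, 3 of the 7 tested genes were higher (*Erbb4*, *Ackr3*, *Cxcr4*), where 12.4% of all 12616 genes tested were higher, and 2 were lower (*Cxcl12*, *Nrg1*), where 17.0% of all genes were lower. Compared with RGC-like cells, 5 were higher (also *Nrg2* and *Nrg3*; 28.0% of all genes) and 1 was lower (*Nrg1*; 29.8% of all genes). With IPC-like cells as the reference, the same 5 were higher (23.3% of all genes) and 2 were lower (*Cxcl12* and *Nrg1*; 24.3% of all genes). The median log2 fold change of the 7 genes was 1.11, 3.06 and 4.26 in these comparisons, beside -0.05, -0.04 and -0.01 for all genes. Each of these calls had the same sign in both replicates. The split over all genes depended on the scaling, since 42.2%, 48.5% and 49.0% of the genes past the threshold were higher in MGE interneuron-like cells with edgeR and 67.4%, 59.2% and 65.9% with DESeq2, whereas the directions of the members called here were the same with both.

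**Figure D4:**
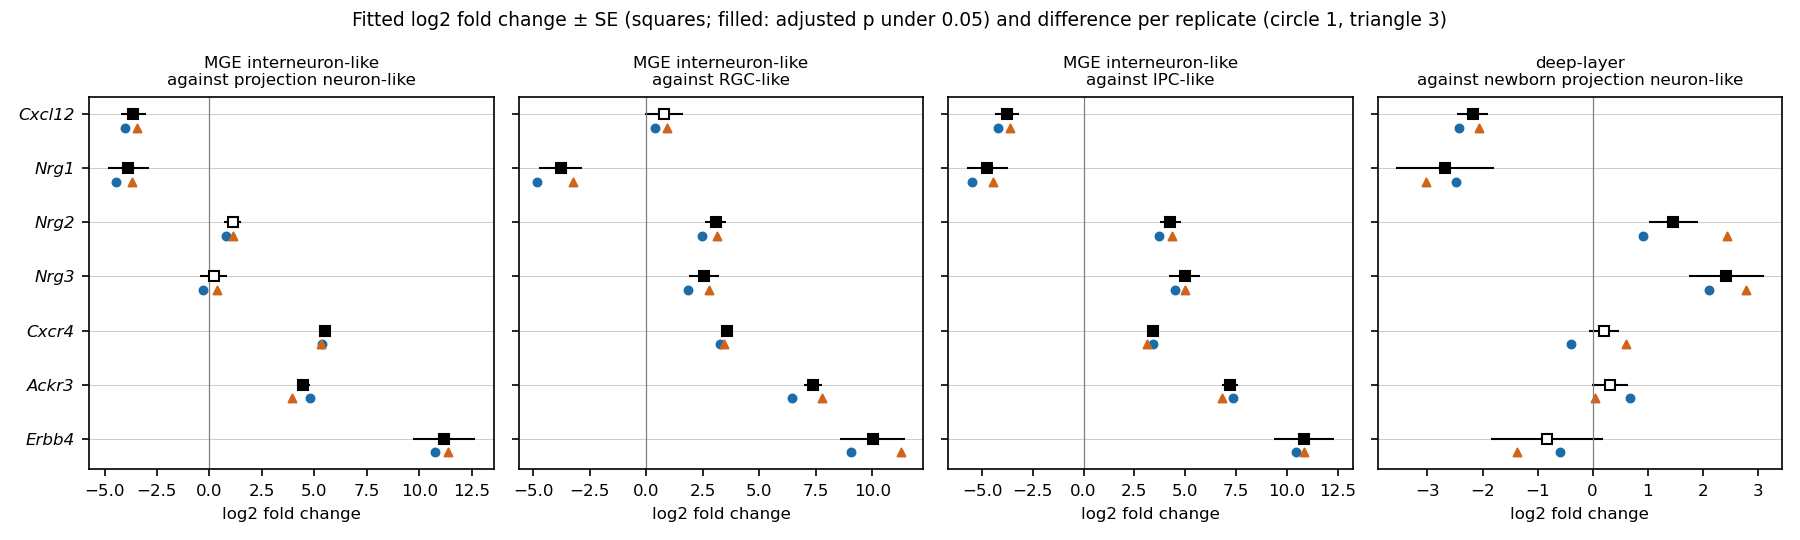
Log2 fold change ± SE of the 7 tested genes in 4 comparisons of cell classes, with filled markers where the edgeR adjusted p was under 0.05 and small symbols for the difference in each replicate (circle, replicate 1, and triangle, replicate 3). In the comparison of MGE interneuron-like with projection neuron-like cells, Erbb4 (11.19), Cxcr4 (5.49) and Ackr3 (4.48) lie above 0 and Nrg1 (-3.87) and Cxcl12 (-3.63) below.

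Within the pallial lineage between 2 and 5 of the 9 genes passed. IPC-like cells were higher than RGC-like cells for *Cxcl12* (14.3% of all genes were higher) and lower for *Nrg3* (19.3% of all genes). Projection neuron-like cells were higher than RGC-like cells for 4 genes (*Cxcl12*, *Ackr3*, *Nrg3*, *Nrg2*; 29.4% of all genes) and lower for *Cxcr4* (28.2% of all genes). They were higher than IPC-like cells for 3 genes (*Nrg3*, *Nrg2*, *Ackr3*; 21.5% of all genes) and lower for *Cxcr4* (18.5% of all genes). Deep-layer clusters were higher than newborn clusters for 2 genes (*Nrg3*, *Nrg2*; 10.5% of 13295 genes) and lower for 2 (*Nrg1*, *Cxcl12*; 7.99%), and of these 4 calls only that of *Nrg3* (2.07, edgeR adjusted p = 0.0465) was left without the newborn cluster led by *Gm27008*. Cajal-Retzius-like cells were higher than projection neuron-like cells for 3 genes (*Cxcr4*, *Erbb4*, *Cxcl12*; 12.9% of all genes) and lower for 0 (11.9% of all genes). The *Cxcl12* difference there (1.36 ± 0.32, edgeR adjusted p = 0.00370) was 1.86 in replicate 1 and 0.22 in replicate 3, and its adjusted p was 0.0759 with only these 2 classes in the fit.

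Non-neural classes were lower than projection neuron-like cells for all 3 neuregulins. Meningeal fibroblast-like cells were higher for 2 genes (*Cxcl12* and, through 1 cell, *Erbb4*; 28.5% of all genes) and lower for 3 (*Nrg1*, *Nrg2*, *Nrg3*; 29.3% of all genes). The *Nrg2* difference there (-2.19 ± 0.69, edgeR adjusted p = 0.0129) had an adjusted p of 0.0510 with DESeq2. Endothelial-like cells were higher for *Cxcr4* (24.8% of all genes) and lower for 4 genes (28.8% of all genes), the neuregulins and *Ackr3*. The last had 2 and 3 UMIs (edgeR adjusted p = 0.0356, 0.0518 with the replicate block and 0.0534 with library sizes only). Their *Cxcl12* level was not past the threshold (0.34 ± 0.39, edgeR adjusted p = 0.487). Pericyte-like cells were lower for 4 genes (*Nrg1*, *Nrg2*, *Nrg3*, *Cxcl12*; 27.6% of all genes) and higher for 0 (24.4% of all genes). Their *Cxcl12* difference (-1.65 ± 0.58, edgeR adjusted p = 0.0238) was lost when doublets were kept (adjusted p = 0.0680).

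Downstream of the receptors, 5 lists of pathway genes were followed (78 genes). Of 22 tested genes of CXCR4 and ACKR3 signal transduction, MGE interneuron-like cells were higher for 5 and lower for 3 when set against projection neuron-like cells. *Arrb1*, an arrestin, was higher by 1.34 ± 0.25 and *Stat3* by 1.14 ± 0.29, while *Rgs16*, which ends G protein signals, was lower (-2.54 ± 0.49). Against RGC-like cells 8 were higher and 3 lower, among them the G protein subunits *Gng2* (3.45 ± 0.26) and *Gnai2* (-2.94 ± 0.23) and again *Arrb1* (2.90 ± 0.27), and against IPC-like cells 7 were higher and 4 lower, led by *Arrb1* (3.05 ± 0.28), *Gng2* (2.77 ± 0.25) and *Rgs16* (-2.58 ± 0.49). Deep-layer clusters were higher than newborn clusters for 6 and lower for 0, with *Rgs4* (3.34 ± 0.45), *Rgs16* (2.56 ± 0.25) and the receptor kinase gene *Grk3* (1.78 ± 0.26) in front. As percentages of the list these counts were 22.7 higher and 13.6 lower, 36.4 and 13.6, 31.8 and 18.2, and 27.3 and 0, beside 12.4 and 17.0, 28.0 and 29.8, 23.3 and 24.3, and 10.5 and 7.99 of all genes. The median log2 fold change of the list was -0.26, 0.05, 0.04 and 0.29 in these 4 comparisons.

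Of 21 tested adaptors, effectors and regulators of ERBB receptors, MGE interneuron-like cells were higher for 5 and lower for 5 than projection neuron-like cells, with a median of -0.23. The docking protein gene *Gab1* was lower (-1.38 ± 0.25), and *Erbin*, whose product binds ERBB2, was higher (1.38 ± 0.21). Against RGC-like cells 9 were higher and 7 lower (median 0.14), with the adaptors *Shc3* (-3.48 ± 0.37) and *Shc1* (-2.83 ± 0.80) and the ERBB inhibitor *Lrig1* (-2.36 ± 0.28) all lower, and against IPC-like cells 3 were higher and 5 lower (median -0.26), among them *Shc1* (-2.87 ± 0.81) and *Lrig1* (-1.31 ± 0.30). Deep-layer clusters had less *Erbin* than newborn clusters (-2.92 ± 0.22) and more *Shc3* (2.12 ± 0.36) and *Pik3cb* (0.78 ± 0.22), with 3 higher and 1 lower in all (median 0.17). As percentages of the list the counts were 23.8 higher and 23.8 lower, 42.9 and 33.3, 14.3 and 23.8, and 14.3 and 4.76 in these 4 comparisons, beside the same percentages of all genes as for the CXCR4 and ACKR3 list.

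Neuregulins are shed from the cell surface by metalloproteases and BACE1. Of 4 tested sheddases, *Adam10* (0.71 ± 0.20) and *Bace1* (0.71 ± 0.20) exceeded the level of projection neuron-like cells in the MGE interneuron-like class and 0 were lower (median 0.51). Both were also higher than in RGC-like cells (0.89 ± 0.20 and 1.68 ± 0.21), as was *Adam19* (3.33 ± 0.30), and the same 3 genes were higher than in IPC-like cells, by 0.67 ± 0.20, 1.28 ± 0.21 and 2.48 ± 0.29. Of all genes tested, 12.4%, 28.0% and 23.3% were higher against projection neuron-like, RGC-like and IPC-like cells, and 17.0% were lower against the first. Among the other ERBB ligands and EGFR, 3 of 9 genes were tested, and *Hbegf*, an EGF-like ligand of EGFR and ERBB4, was higher in the MGE interneuron-like class than in projection neuron-like (1.35 ± 0.37), RGC-like (2.04 ± 0.39) and IPC-like cells (2.93 ± 0.42). *Egfr* was higher in meningeal fibroblast-like than in projection neuron-like cells (7.34 ± 0.89), and *Tgfa* was lower in deep-layer than in newborn clusters (-1.68 ± 0.49). Of 19 other chemokine ligands and receptors, 6 were tested. The cytokine gene *Mif* was lower in the MGE interneuron-like class than in projection neuron-like (-1.16 ± 0.24), RGC-like (-2.04 ± 0.24) and IPC-like cells (-0.96 ± 0.24), *Ackr1* was higher than in RGC-like cells (1.85 ± 0.52), and *Cxcl14* was higher in deep-layer than in newborn clusters (2.84 ± 0.70). Each gene named in these lists passed an edgeR adjusted p of 0.05 with the same sign in both replicates.

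Genes with the most similar profile over the 10 classes of at least 20 cells per replicate were ranked by Pearson's r of log2(CPM + 1), a description that rests on sums of the same libraries. For *Cxcl12* these were *Tmem150a* (r = 0.918), *Igsf1* and *Pthlh*. For *Cxcr4*, *Rcan2* (0.950), *Pnoc* (0.890) and *Ero1lb* came first. *Ackr3* was closest to *A230077H06Rik* (0.951), *Vwc2l* and *Gm48283*, and *Erbb4* to *Gm45321* (0.982), *Gm2516* and *Gm48427*. *Nrg1* was closest to *Gm11266* (0.969), *Med22* and *Lhx2* (0.958), a pallial progenitor factor. *Nrg2* followed *Gm44151* (0.975), *Dpp6* (0.969) and *Fgf14*, and *Nrg3* followed *Fam169a* (0.996), *D430041D05Rik* and *Erc2* (0.977), a gene of the presynaptic active zone. None of the 9 genes was among the 3 nearest to another.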

How the data were processed

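Cell Ranger 7.0.0 and mm10 are named in the submitters' processing notes, and the authors deposited UMI counts per gene and cell barcode for each sample. The annotation and the setting for reads in introns are not given in the sources used here. Genes, contrasts and lists were chosen with earlier results of these data known. Barcodes with 1500 to 60000 UMIs and under 10% mitochondrial counts were kept. The barcodes most like simulated doublets were removed (304 and 629), their number set by an assumed rate that grows with the barcodes of a library. Cells were clustered with scanpy 1.11.5 (2000 variable genes, 30 components, 15 neighbours, Leiden resolution 1), without the 9 genes and the pathway lists. A cluster could be named where at least 3 markers of a class were on. On meant over 0.5 of the marker's range over clusters, in at least 10% of cells. Markers among its leading genes weighed in the choice but were not required of every cluster. The newborn clusters led by *Tafa1* and *Gm43948* had no marker of projection neurons among their leading genes. The largest GABAergic cluster beside the MGE one held markers of more than 1 lineage and stayed "other GABAergic-like".

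Counts were summed per class and replicate for the 10 classes with at least 20 cells in each, and tested in 1 fit with edgeR 4.0.16 (R 4.3.3, TMM, filterByExpr, quasi-likelihood test, Benjamini-Hochberg adjustment over 12616 genes, threshold 0.05). Projection neuron-like cells were split in a further fit (13295 genes). Sums of 1 replicate come from 1 library, so replicate numbers pair the sums by design. Correlations of replicate differences between classes ran from -0.0895 to 0.367 (median 0.0321, 45 pairs). Classes were made from the same cells, so counts over all genes are not independent evidence. Shares used cells thinned to 3000 UMIs, and cells below that were left out. Named genes were all 9 members, the up to 3 genes per pathway list and contrast described with the largest fold change past the threshold and the same sign in both replicates, and the 3 nearest profiles per member that reached 10 CPM in a class. *Egfr* was named alone from its contrast. A gene of the pathway lists that this rule named is not reported here. The fit was tested on simulated data. Alternatives were DESeq2 1.42.0, library sizes only, no filter, a replicate block, doublets kept, at least 3000 UMIs, Leiden resolution 1.5, a fit of 2 classes, leaving out each replicate and, added after the data had been seen, leaving out 1 newborn cluster.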

Additional observations from a re-analysis of the deposited data

How the results depend on the processing

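Of 84 member values (7 genes in 12 comparisons), 52 passed the threshold. Over all 12616 genes, between 779 (other GABAergic-like against MGE interneuron-like) and 7292 (meningeal fibroblast-like against projection neuron-like) passed in a class comparison. For deep-layer against newborn clusters 2464 of 13295 genes passed. Of the 52 member values, 14 lost the threshold under at least 1 alternative and 1 changed sign. That 1 was *Erbb4* in meningeal fibroblast-like against projection neuron-like cells, which was -0.87 without replicate 1 and 3.53 without replicate 3. The replicate as a block added *Nrg2* in 2 comparisons and removed *Ackr3* in endothelial-like cells (log2 fold change -2.08), and changed no other call among the 84. It also turned *Nrg2* in other GABAergic-like against MGE interneuron-like cells to -0.053, a value not past the threshold. The number of members past the threshold went from 2 to 6 without the filter on low counts and to 4 with 2 classes in the fit for IPC-like against RGC-like cells, from 3 to 6 without the filter for Cajal-Retzius-like cells, from 2 to 4 without the filter for other GABAergic-like cells, and from 4 to 2 with DESeq2 and to 1 without the newborn cluster led by *Gm27008* for deep-layer against newborn clusters. That cluster and the one led by *Tafa1*, whose removal left 4, were left out after the data had been seen. The causes of these moves were not tested.

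Values not past the threshold changed sign as follows. Of these, 12 had the other sign in 1 replicate alone, from -2.49 (*Nrg2* in other GABAergic-like cells) to 0.40 (*Erbb4* in IPC-like against RGC-like cells), with *Nrg3* in MGE interneuron-like against projection neuron-like cells at -0.32. Without the newborn cluster led by *Gm27008*, *Ackr3* in deep-layer clusters was -0.030. With doublets kept, *Nrg3* in MGE interneuron-like against projection neuron-like cells was -0.010, *Cxcr4* and *Ackr3* in IPC-like against RGC-like cells -0.45 and -0.71, *Nrg1* and *Erbb4* in projection neuron-like against RGC-like cells -0.16 and 0.052, *Erbb4* against IPC-like cells 1.71, *Nrg1* in Cajal-Retzius-like cells 0.13, *Nrg1* in other GABAergic-like cells -0.41, and *Cxcr4* and *Erbb4* in deep-layer against newborn clusters -1.45 (past the threshold, adjusted p = 0.0138, edgeR) and 0.16. With at least 3000 UMIs, *Cxcr4* in IPC-like against RGC-like cells was -0.54, *Cxcl12* in projection neuron-like against IPC-like cells 0.77, *Erbb4* in endothelial-like cells -0.80 and *Cxcr4* in deep-layer clusters -0.78. At Leiden resolution 1.5, *Cxcr4* and *Ackr3* in IPC-like against RGC-like cells were -0.31 and -0.10, *Erbb4* in projection neuron-like against IPC-like cells 0.058, *Nrg2* in other GABAergic-like cells -0.37 and *Cxcr4* in deep-layer clusters -0.73. With DESeq2, *Ackr3* in IPC-like against RGC-like cells was -0.071, *Nrg1* in Cajal-Retzius-like cells 0.036 and *Nrg2* in other GABAergic-like cells -0.29. With library sizes only, *Nrg1* was -0.11 in projection neuron-like against RGC-like cells and 0.20 in Cajal-Retzius-like cells, and without the filter the first was -0.0048.

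DESeq2 moved the median of all genes from -0.05 to 0.22 for MGE interneuron-like against projection neuron-like cells, from -0.04 to 0.20 against RGC-like and from -0.01 to 0.28 against IPC-like cells, and library sizes only moved it from -0.04 to 0.20 for Cajal-Retzius-like cells, where 52.1% and then 72.6% of the genes past the threshold were higher, and from 0.02 to -0.13 for projection neuron-like against IPC-like cells (53.7% and then 41.2%). As a mean over cells, *Cxcl12* in meningeal fibroblast-like cells was 1164 and *Ackr3* in MGE interneuron-like cells 398 CPM. The mean shares of MGE interneuron-like cells with *Cxcr4* and *Ackr3* (12.1% and 60.5%) were 6.09% and 40.1% at 1500 UMIs, 18.3% and 70.3% unthinned, and 10.3% and 53.4% with doublets kept. Leaving out a replicate gave values with no test, since no degrees of freedom were left. Comparisons with caudal and lateral ganglionic eminence classes were not run, since no such class was found in both replicates. With 2 samples, depth limits the classes in the fit of under 60 cells in a replicate (Cajal-Retzius-like, meningeal, endothelial-like, pericyte-like, erythroid-like, other GABAergic-like) and genes with few UMIs, such as *Cxcr4* (77 and 51) and *Nrg2* (70 and 34) in MGE interneuron-like cells.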
